A study of Mus musculus with 24 samples.

Results

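Glial reactivity in the murine choroid was followed through 10 genes. Gfap, Vim, Nes, Glul, Slc1a3, Aqp4, Sox9, Cd44 and Ednrb are known from Müller glia and astrocytes, and Edn2 is a signal of injured photoreceptors. They were taken by symbol from a table of 56065 genes and not by a threshold on their values. All 10 were found by their Ensembl identifiers, and 9 of them were above 0 in every library, the exception being Edn2. All 10 had a mean of at least 10 normalized counts over the 24 libraries and so were tested for an effect of the laser. Without laser, Edn2 stayed under that mean and 9 were tested.

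The 24 libraries hold RNA of choroidal tissue. Without laser there were 4 of wild type littermates (libraries 21, 22, 26 and 27) and 4 of Ceacam1-/- mice (libraries 23, 24, 25 and 28). After laser, 9 libraries were from wild type (libraries 1, 2, 3, 11, 12, 13, 16, 17 and 19) and 7 from Ceacam1-/- mice (libraries 4, 5, 6, 7, 14, 15 and 18). The laser, a model of choroidal neovascularization, was set at 6 spots per eye, 150 mW, 200 µm and 100 ms. Ceacam1-/- mice lack the first exons of the gene in all cells and were, like their littermates, young adults of both sexes on a C57BL/6J background. The time after laser, the sex and the exact age of each mouse are not given in the sources used here. The groups without laser are described as 4 mice each, the number of their libraries, whereas for the laser libraries it is not stated that each is a separate mouse, so p-values measure the spread between libraries. Values are DESeq2-normalized counts, estimated reads divided by factors for library size and transcript length. They summed to between 23704346 and 35094410 per library. Ceacam1 itself was at 958, 5027, 1242 and 4596 normalized counts in the wild type and at 405, 505, 508 and 1171 in the Ceacam1-/- libraries without laser. After laser it lay between 774 and 8367 (median 996) in wild type and between 67.8 and 905 (median 335) in Ceacam1-/- libraries. The Ceacam1-/- values were lower on average, with an overlap in both states. It rested on libraries 28 (1171) and 15 (905), and without them the highest Ceacam1-/- values were 508 without and 438 with laser, below all wild type libraries. Which exons these counts came from was not tested.

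Müller glia span the neural retina, whereas astrocytes sit at its inner surface and in the optic nerve head. Both recycle glutamate, buffer water and potassium and respond to injury by building intermediate filaments, a state called reactive gliosis. Injured photoreceptors release endothelin 2, which acts on the endothelin B receptor of Müller glia. None of these genes is restricted to glia, and vimentin, nestin, CD44 and the endothelin B receptor are also made by fibroblasts, vascular cells, melanocytes or leukocytes.

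The labelled tissue was checked against markers of the cells it could hold. Retinal pigment epithelium (Rpe65 between 2045 and 56349 normalized counts) and melanocytes were found in all libraries. All 14 photoreceptor genes of a marker list were above 0 in every library too, so transcripts of neural retina were present in tissue labelled as choroid. The amount differed widely. Without laser, the photoreceptor list summed to 571366, 617716 and 271373 in libraries 21, 23 and 27 and to at most 97845.8 in the others. Summed over the photoreceptor list, the Ceacam1-/- laser libraries 14, 15 and 18 held 1007250, 571176 and 1074600 normalized counts, against 8942 to 153397 in libraries 4, 5, 6 and 7 of the same group. Libraries 14, 15 and 18 thus stood apart from their group, and their mean log2 values of pigment epithelium (10.6 to 11.2 against 12.6 to 13.3), melanocyte (9.22 to 10.8 against 12.7 to 13.6), fibroblast (11.7 to 12.8 against 14.7 to 15.1) and myeloid lists (9.59 to 10.2 against 11.4 to 11.7) were all lower. Library 23, Ceacam1-/- without laser, had 375721 normalized counts of the myelin gene Mbp, 5.96 times the next library, which was library 4 with 63090. Libraries 15, 22 and 28 contained the corneal keratin Krt12 at 178593, 175232 and 61194. A list of corneal epithelial genes also had high sums in libraries 19 and 27, at 36579.9 and 19743.2, against at most 3372.53 in the other 19. Krt12 was at only 16.4 and 3.02 in libraries 19 and 27, so their sums came from other genes of the list. The summed value of 8 lens genes had a median of 597 without and 4540 with laser in wild type. In Ceacam1-/- mice these medians were 401 and 5995. Libraries 22 and 24, without laser, stood high at 16888 and 33877. None of the 8 passed in either genotype, and their part in the values below was not tested. For the 10 genes and many of the gene lists, values without some of the libraries that stood apart are given below too.

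**Figure D1:**
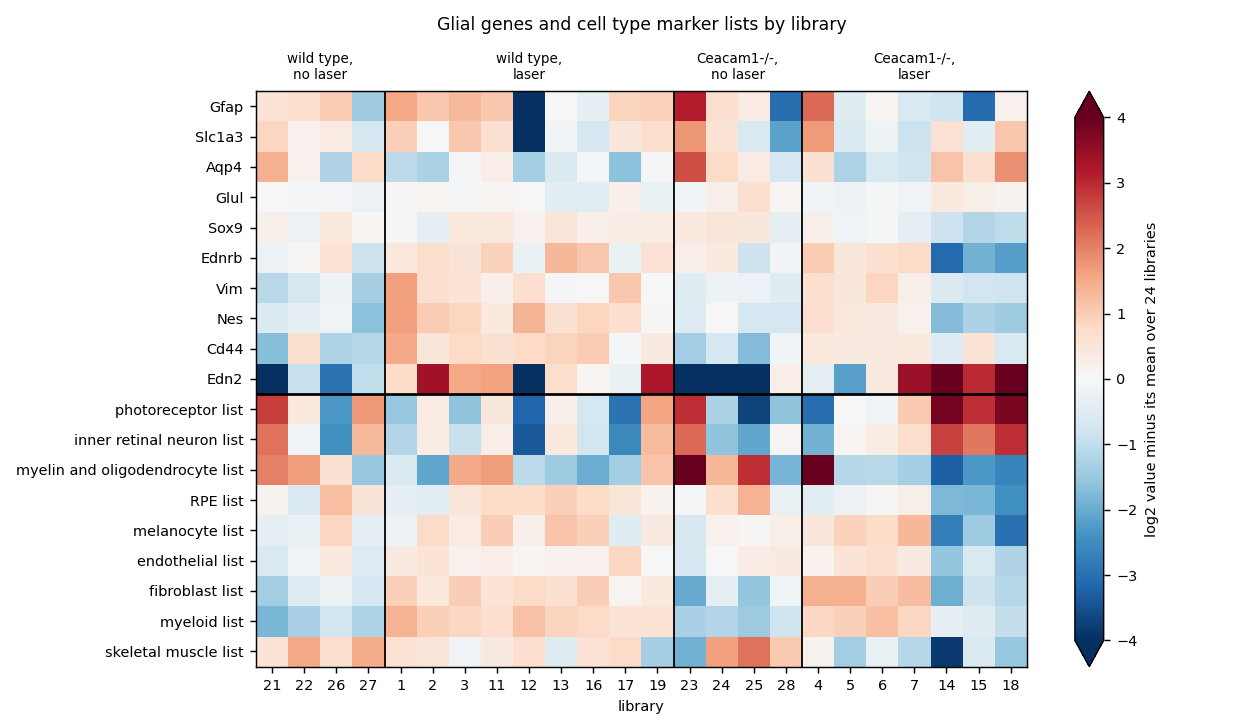
Each column is a library and each row a glial gene or the mean of a marker list, coloured by the log2 value minus its mean over the 24 libraries (red above, blue below, with colours ending at 4). Photoreceptor and inner retinal rows are red in libraries 14, 15 and 18 and, without laser, in 21, 23 and 27. The myelin row is darkest red in 23 and 4, and the rows of Gfap and Slc1a3 are darkest blue in library 12.

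Per kilobase of transcript the genes differed widely in level. Averaged over 24 libraries, Vim stood at 8463 normalized counts per kb, Glul at 4586, Gfap at 2854 and Ednrb at 1538. Sox9 (965), Slc1a3 (779), Cd44 (390.0), Nes (284) and Aqp4 (237) followed, and Edn2 was lowest with 111, or 16.4 as a median. The coefficient of variation of Glul among the libraries of a group was between 6.80% and 23.9%, the lowest of the 10 genes except in the Ceacam1-/- group without laser, where Vim (10.5%) and Nes (23.6%) varied less, whereas that of Edn2 lay between 97.9% and 200.0%.

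In wild type mice 3 of the 10 genes rose after laser, Vim, Nes and Cd44, and none fell. The background was 5.28% of 19950 genes tested (limma with Benjamini-Hochberg adjustment, threshold 0.05), 4.23% higher and 1.05% lower. The median log2 fold change was 0.38 over the 10 genes and -0.10 over all genes tested. In bulk RNA more cells of a type and more RNA per cell cannot be told apart.

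Vim (chr2:13578738-13587639, + strand, GRCm39) encodes vimentin, an intermediate filament protein of glia and mesenchymal cells. In wild type libraries 21, 22, 26 and 27 it was at 7639.9, 10186, 14234 and 6465 normalized counts, and after laser between 15485 and 50709 (median 23906). All 9 laser libraries lay above all 4 without laser. The log2 fold change was 1.35 ± 0.33 (SE, adjusted p = 0.0160, limma), and the exact two-sided permutation test over 715 splits gave p = 0.0028, the smallest it allows. Non-overlap in this direction was found for 4.50% of the genes tested.

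Nes encodes nestin, an intermediate filament protein of neural progenitors that reappears in reactive glia and is also made by proliferating endothelium. It lies at chr3:87878385-87887758 on the + strand of GRCm39, with 4 exons in its canonical transcript of 6126 bases. Its values were 962, 1092, 1299 and 460.4 in libraries 21, 22, 26 and 27 and between 1497 and 4504 (median 2623) after laser. Again the groups did not overlap. Nes rose by 1.53 ± 0.40 on the log2 scale (SE, adjusted p = 0.0238, limma; exact permutation p = 0.0028).

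Cd44 encodes the receptor for hyaluronan and osteopontin at chr2:102641486-102732010 on the - strand, and it marks reactive Müller glia and astrocytes as well as leukocytes and fibroblasts. In the same order it was at 569, 2907, 786 and 841 normalized counts without laser and between 1810 and 5373 (median 3229) with laser. Library 22, among the 3 with abundant Krt12, was the single high value without laser, and 5 of 9 laser libraries exceeded it. This was a log2 fold change of 1.58 ± 0.36 (SE, adjusted p = 0.00868, limma; exact permutation p = 0.0140), and with libraries 15, 22 and 28 left out it was 2.08 and passed too.

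The promoters of Nes and Cd44, both higher after laser in wild type, are shown because sequence shared by genes that move together can be searched. They are the 235 and 250 bases before the first annotated exon, from RefSeq and matched to GRCm39 at chr3:87878150-87878384 (+ strand) and chr2:102732011-102732260 (- strand), 5′ to 3′, with matches to GGGCGG on either strand in capitals:
Nes: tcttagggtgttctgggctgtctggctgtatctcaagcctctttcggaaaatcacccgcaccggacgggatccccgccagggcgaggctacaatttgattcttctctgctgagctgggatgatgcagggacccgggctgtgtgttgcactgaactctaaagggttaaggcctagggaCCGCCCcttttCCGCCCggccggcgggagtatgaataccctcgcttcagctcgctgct
Cd44: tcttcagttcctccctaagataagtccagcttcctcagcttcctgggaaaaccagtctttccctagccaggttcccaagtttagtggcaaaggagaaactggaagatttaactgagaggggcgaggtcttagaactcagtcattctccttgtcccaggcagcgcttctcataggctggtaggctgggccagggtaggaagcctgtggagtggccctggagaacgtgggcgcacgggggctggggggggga

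The promoter of Nes held GGGCGG, the GC box bound by Sp1, at 2 places, both on the reverse strand as CCGCCC, starting at positions -73 and -62 from the RefSeq gene start. Cd44 had no match in this window. Of 27025 promoters of 250 bases, 32.9% held GGGCGG on either strand. TTCNNNGAA, an element bound by STAT factors, was found on either strand in 7.18% of promoters, TGANTCA, an AP-1 element, in 6.87%, CCAAT in 34.5% and TATAAA in 13%. Of the 8 genes with an entry, 3 held GGGCGG (Nes, Glul and Slc1a3), 4 CCAAT (Vim, Glul, Slc1a3 and Ednrb), 2 TATAAA (Vim and Slc1a3) and 1 TTCNNNGAA (Slc1a3, starting at position -96), and none held TGANTCA.

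The wild type calls depended on which libraries without laser were present. Without library 21 none of the 3 passed (adjusted p = 0.0752 for Vim, 0.0665 for Nes and 0.0717 for Cd44, limma), with log2 fold changes of 1.26, 1.57 and 1.30. Without library 27 only Cd44 passed (1.49, adjusted p = 0.0454), and Vim was at 1.18 (adjusted p = 0.0924) and Nes at 1.21 (adjusted p = 0.148). Library 27, in which the corneal list but not Krt12 was raised, had the lowest Vim of all 24 libraries and the lowest Nes of the wild type libraries. Libraries 21 and 27 also held more of the summed photoreceptor list (571366 and 271373) than any wild type laser library (at most 229614). With that list as a covariate the changes were 1.08 for Vim, 1.22 for Nes and 1.48 for Cd44 (adjusted p = 0.00937, 0.0188 and 0.0131, limma). The part of retinal tissue in these values was not tested beyond this fit. With the summed level of Y-linked genes as a covariate, in place of sex, Nes was at 1.46 (adjusted p = 0.0511).

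**Figure D2:**
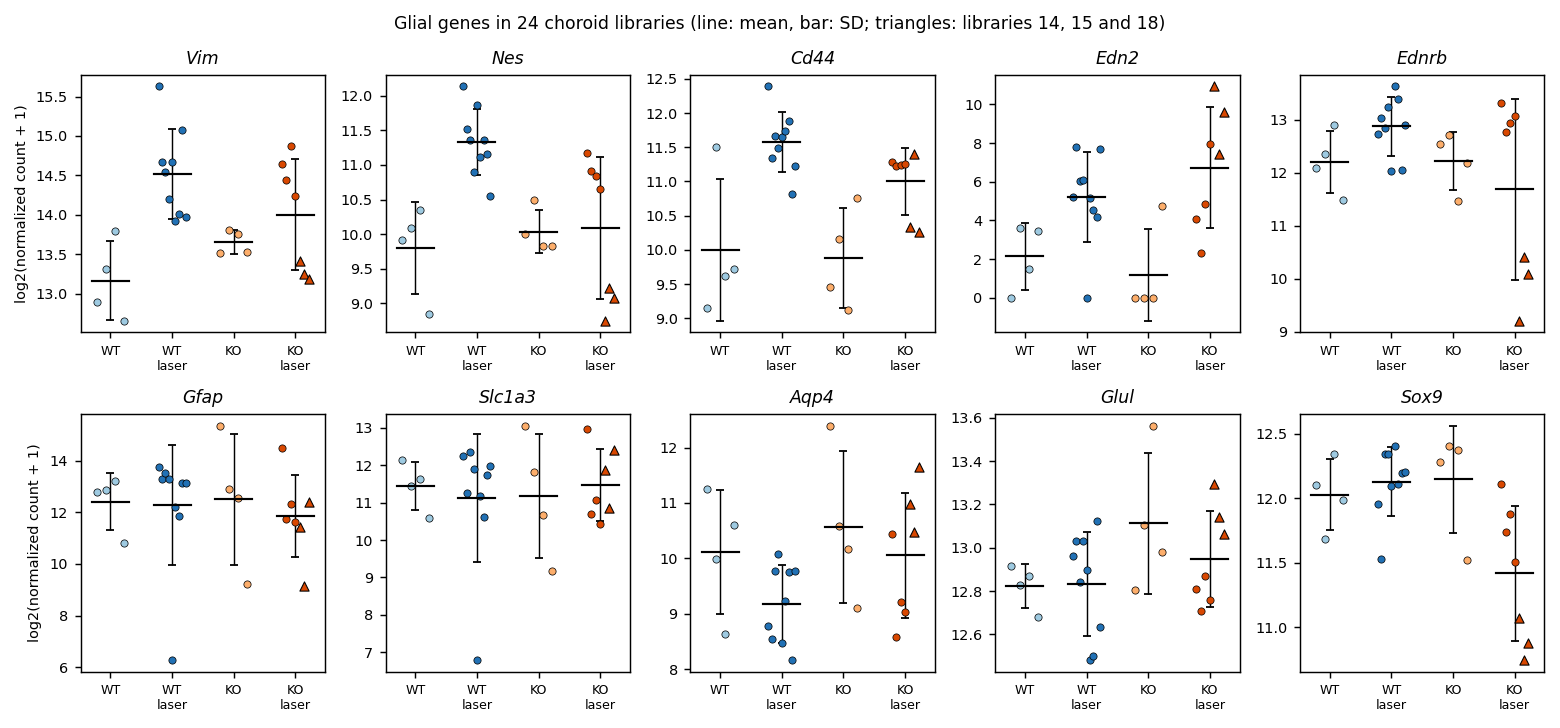
Each point is a library, on log2(normalized count + 1), by genotype (WT wild type, KO Ceacam1-/-) and laser, with the group mean as a line and the SD as a bar. Vim and Nes of all 9 wild type laser libraries sit above the 4 without laser, and libraries 14, 15 and 18 (triangles) hold the lowest Vim, Nes, Sox9 and Ednrb of the Ceacam1-/- laser group.

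Edn2 alone of the 10 genes passed the test in Ceacam1-/- mice, against a background of 3.72% of 19950 genes (2.07% higher and 1.65% lower). The median log2 fold change was -0.05 over the 10 genes and 0.02 over all genes.

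Vim was at 11746.5, 14377, 13866 and 11831 normalized counts in libraries 23, 24, 25 and 28. After laser it was at 25518, 22249.6, 29989 and 19251 in libraries 4, 5, 6 and 7, all above these, and at 10877, 9703 and 9338 in libraries 14, 15 and 18, all below. Over the 7 libraries the log2 fold change was 0.35 ± 0.34 (SE, adjusted p = 0.599, limma).

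Nes showed the same split. Without laser it was at 1021, 1439, 909 and 908, and after laser at 2306, 1931, 1839 and 1616 in libraries 4, 5, 6 and 7 but at 429.6, 598 and 540.0 in libraries 14, 15 and 18. Over all 7 the change was 0.06 ± 0.41 (SE, adjusted p = 0.950, limma). With libraries 14, 15 and 18 left out, an alternative chosen after the values were seen, Vim was at 0.89 (adjusted p = 0.0800) and Nes at 0.86 (adjusted p = 0.0805), and neither passed.

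Cd44 was at 705, 1141, 555 and 1737 in the Ceacam1-/- libraries without laser, and at 2501, 2392, 2413, 2452, 1291, 2695 and 1223 in libraries 4, 5, 6, 7, 14, 15 and 18. The 5 laser libraries other than 14 and 18 exceeded all without laser. The log2 fold change of 1.12 ± 0.37 (SE, adjusted p = 0.0877, limma; exact permutation p = 0.0242 over 330 splits) did not pass after adjustment. With libraries 14, 15 and 18 left out it was 1.38 and passed (adjusted p = 0.0331). It also passed without libraries 15, 22 and 28 (1.35, adjusted p = 0.0176), without library 28 alone (1.42, adjusted p = 0.0423), which held the highest Cd44 of its group, without library 22 alone (adjusted p = 0.0395, at an unchanged 1.12) and with array weights (1.15, adjusted p = 0.0108). In the fit without libraries 14, 15 and 18, 10.2% of 19723 genes passed in Ceacam1-/- mice (7.60% higher) and 10.8% in wild type (7.82% higher), a higher background than with all libraries.

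Myeloid genes were also examined, since leukocytes express Cd44. All 14 genes of the myeloid list were above 0 in every library, with lysozyme (Lyz2) as the most abundant. The summed value of the list was between 12572 and 26028 in the 8 libraries without laser, between 59789 and 148553 in the wild type and between 19944 and 108936 in the Ceacam1-/- libraries after laser, lowest in library 18. Library 22, with the highest Cd44 without laser, had 16022.6, and library 15, with the highest Cd44 of the Ceacam1-/- laser group, had 28922.6, the second lowest of its group. Of the 14 genes, 13 rose in wild type and 9 in the Ceacam1-/- libraries. Of 8 fibroblast genes, led by Col1a1, 2 rose in wild type and 1 rose in the Ceacam1-/- libraries. Leaving out libraries 14, 15 and 18 gave 14 and 13 myeloid and 5 and 8 fibroblast genes, against the higher background of that fit. Leaving out library 24 gave 6 and library 25 gave 4 myeloid genes in Ceacam1-/- mice. No fibroblast gene passed in wild type without library 21, or in Ceacam1-/- mice without library 5, 6, 7, 24 or 25, the wild type count was 1 without library 3, 22 or 27, and the Ceacam1-/- count was 2 without library 14 or 15. The part of these cells in the values of Vim, Nes and Cd44 was not tested.

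Gfap, the glial fibrillary acidic protein gene and the classical marker of gliosis (chr11:102778159-102791738, - strand, GRCm39), did not pass in either genotype. In wild type it was at 7021, 7399.8, 9530.0 and 1778 without laser and between 76.8 and 13887 (median 8935) with laser. The ranges overlapped, with 4 of 9 laser libraries above the highest and 1 below the lowest value without laser. A log2 fold change of -0.14 was fitted with a 95% interval from -2.47 to 2.18 (adjusted p = 0.954, limma), so changes of over 4-fold in either direction lie inside it. The lowest value came from library 12, which also had the lowest Slc1a3 (109.7), and without it the change was 0.61 (adjusted p = 0.726).

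Gfap in Ceacam1-/- mice was at 42060.1, 7586, 6023 and 592 in libraries 23, 24, 25 and 28. After laser it was at 22843, 3434, 5068, 3131, 2736, 562 and 5349 in libraries 4, 5, 6, 7, 14, 15 and 18. One library in each state stood far above its group, library 23 without and library 4 with laser. These are the libraries with the most Mbp. The log2 fold change was -0.64 (95% interval from -3.06 to 1.79, adjusted p = 0.797, limma), and it turned to 0.32 without library 23.

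Central myelin is made by oligodendrocytes, which in the mouse are found in the optic nerve behind the globe. A list of 7 myelin genes, Mbp, Mog, Mobp, Mag, Cldn11, Ermn and Opalin, written after the values were seen, summed to 528106 normalized counts in library 23 and 87406 in library 4, against 1244 to 38411 in the other 22. Of the 7, 2 were at 0 in at least 1 library. With the mean of the list as a covariate the Gfap change was 0.50 (adjusted p = 0.777) in wild type and 1.19 (adjusted p = 0.561) in Ceacam1-/- mice.

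**Figure D3:**
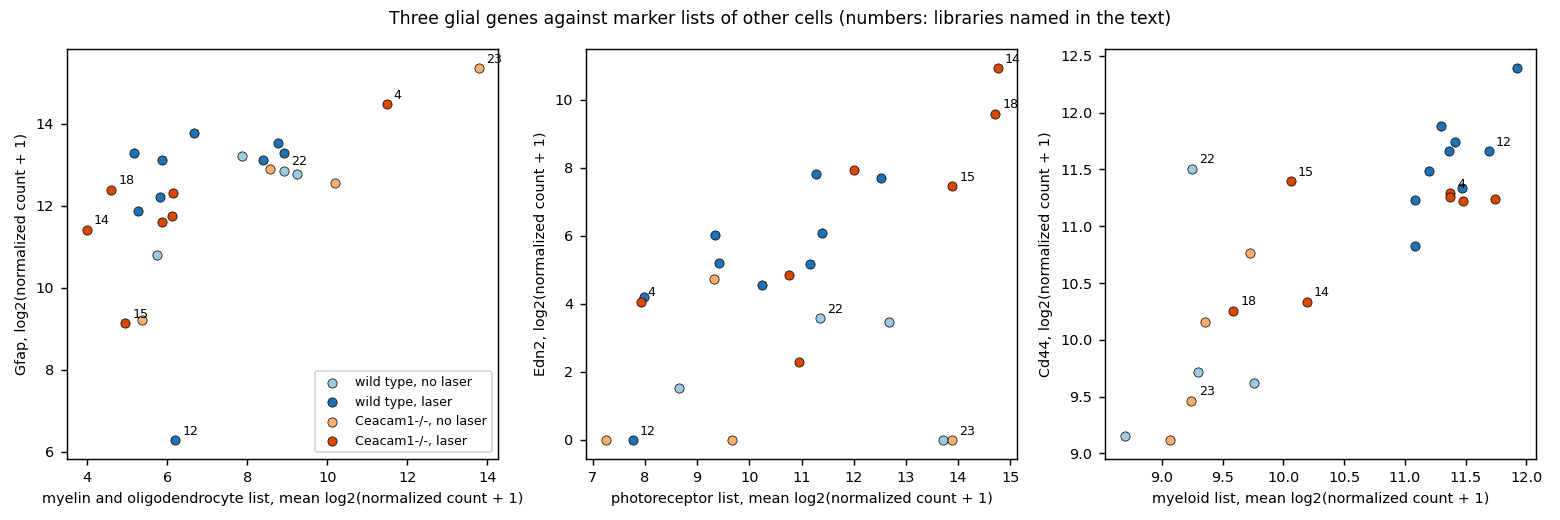
Each point is a library, with Gfap plotted against the myelin list, Edn2 against the photoreceptor list and Cd44 against the myeloid list, all as log2(normalized count + 1) and means of it. Libraries 23 and 4 hold the highest Gfap and myelin values, libraries 14, 15 and 18 the highest photoreceptor values of the laser groups and library 12 the lowest Gfap.

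The genes whose pattern across the 24 libraries was most like that of Gfap, after subtraction of group means, were Kif5a (Pearson's r = 0.961), Unc13c (0.959), Sptbn4 (0.926), Gabrg3 (0.924) and Slc1a3 (0.924), of 19950 genes. Kif5a encodes a neuronal kinesin and Sptbn4 a spectrin of axons. For Cd44 the nearest were Tgfbi (0.889), Wdr26 (0.849), Shmt1 (0.849), Parpbp (0.848) and Exo1 (0.839). The points share library and depth, and the libraries differed in photoreceptor and myelin content as given above. Among the 10 genes themselves, r was highest for Gfap and Slc1a3, then for Vim and Nes (0.836) and for Nes and Ednrb (0.763), and it was lowest for Nes and Edn2 (-0.663).

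Edn2, the endothelin 2 gene at chr4:120018403-120024557 (+ strand, GRCm39), was close to 0 without laser. In wild type libraries 21, 22, 26 and 27 it was at 0, 11.01, 1.86 and 10.1 normalized counts, and in Ceacam1-/- libraries 23, 24 and 25 it was listed at 0, with 25.4 in library 28. After laser it lay between 0 and 224 (median 36.1) in wild type. Among Ceacam1-/- laser libraries it was at 15.8, 3.92, 27.6 and 242 in libraries 4, 5, 6 and 7 and at 1955, 175 and 768 in libraries 14, 15 and 18. Of the 9 wild type laser libraries 8 exceeded the highest without laser, and of the 7 Ceacam1-/- laser libraries 5 did.

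On the log2(value + 1) scale the Edn2 change was 5.55 ± 1.48 (SE, adjusted p = 0.0376, limma; exact permutation p = 0.0182) in Ceacam1-/- mice. It was 3.05 ± 1.42 (SE, adjusted p = 0.228, limma; exact permutation p = 0.0420) in wild type. The interaction was 2.50 (95% interval from -1.74 to 6.74, adjusted p = 0.674), so the genotypes were not shown to differ in this change. With 3 of the 4 Ceacam1-/- values without laser listed at 0, the size of the change depended on the pseudocount. With a pseudocount of 10 it was 3.33 (adjusted p = 0.0672) and did not pass.

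The libraries with the highest Edn2, 14 and 18, also had the highest summed value of the photoreceptor list. In libraries 21 and 23 this value was 571366 and 617716 without laser and Edn2 was listed at 0. The part of photoreceptors in the Edn2 values was not tested beyond the fits that follow. Without libraries 14, 15 and 18 the Ceacam1-/- change was 3.60 ± 1.47 (SE, adjusted p = 0.130, limma), and with the photoreceptor list as a covariate it was 4.29 (adjusted p = 0.0681). With the myelin list as a covariate it was 4.08 (adjusted p = 0.159), with both lists 3.10 (adjusted p = 0.209), and without a filter on low genes the adjusted p was 0.0650. The call was also lost without library 7, 14, 15, 18, 24 or 25 alone (adjusted p from 0.0533 to 0.179), and with only the 11 Ceacam1-/- libraries in the fit (adjusted p = 0.204). Genes most like Edn2 in pattern were Gm37521 (r = 0.793), Gm15513 (0.758), Cdk8 (0.745), Gm14827 (0.735) and Ackr1 (0.735).

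Ednrb (chr14:104052053-104081900, - strand), the endothelin B receptor of glia, melanocytes and endothelium, did not pass in either genotype with all libraries weighted equally. In wild type it was at 4333, 5233, 7641 and 2886 without laser and between 4205 and 12687 (median 7654) with laser, a log2 fold change of 0.67 ± 0.59 (SE, adjusted p = 0.538, limma), and it passed with array weights (1.17, adjusted p = 0.0124). Without laser, Ceacam1-/- mice were at 5984, 6691, 2847 and 4665. After laser, libraries 4, 5, 6 and 7 were at 10161.5, 6938, 7841 and 8643, above all of these, and libraries 14, 15 and 18 at 592.5, 1354 and 1097, below them. The log2 fold change of -0.54 ± 0.61 (SE, adjusted p = 0.649, limma) became 0.79 (adjusted p = 0.157) without these 3 libraries.

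Endothelium and melanocytes, which also express Ednrb, were read from their marker lists, with Plvap and Dct as the most abundant genes. None of the 10 endothelial and 8 melanocyte genes passed in either genotype with all libraries. Their median log2 fold changes were 0.44 and 0.54 in wild type, with all 10 and all 8 genes above 0, and -0.25 and -0.49 in Ceacam1-/- mice. With libraries 14, 15 and 18 left out, the Ceacam1-/- medians turned to 0.47 and 0.80. In that fit, with its higher background, 1 melanocyte gene passed as higher in Ceacam1-/- mice. The mean log2 value of the endothelial list was 9.51, 10.5 and 9.87 in libraries 14, 15 and 18 and 11.2 to 11.7 in libraries 4, 5, 6 and 7, and that of the melanocyte list was lower in the same libraries, as given above. For genotype with laser the medians were -0.52 and -1.05. The part of these cells in the values of Ednrb and Nes was not tested.

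Among the other genes of the endothelin axis none passed in either genotype. The ligand Edn1 had a median of 454 normalized counts without and 417 with laser in wild type (log2 fold change -0.26, adjusted p = 0.696, limma), and Edn3 had 2807 and 5811 (0.69, adjusted p = 0.570). The receptor Ednra was at 691 and 1240 (0.95, adjusted p = 0.270). The converting enzymes Ece1 and Ece2 were at 0.40 and -0.26 (adjusted p = 0.470 and 0.845). Counts over the 7 genes of the axis were thus 0 in wild type and 1 in Ceacam1-/- libraries (Edn2). Leaving out libraries 14, 15 and 18, Ednra passed in both genotypes (0.95 and 1.47, adjusted p = 0.0182 and 0.0026, limma) and Edn3 in Ceacam1-/- mice (1.53, adjusted p = 0.0113).

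The homeostatic genes of glia did not pass in either genotype with all libraries weighted equally. Glul, glutamine synthetase, which converts glutamate to glutamine in Müller glia, was at 7713, 7269, 7483 and 6571 normalized counts in wild type without laser and between 5718 and 8918 (median 7638) with laser. The log2 fold change was 0.01 with a 95% interval from -0.31 to 0.33 (adjusted p = 0.975, limma), the narrowest of the 10 genes. The Ceacam1-/- libraries had Glul at 7155, 8813, 12112 and 8069 without laser and between 6678 and 10044 (median 7489) with laser. The change was -0.16 (95% interval from -0.50 to 0.17, adjusted p = 0.594, limma). Without libraries 14, 15 and 18 it was -0.33 (adjusted p = 0.248, limma).

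Slc1a3, the glutamate transporter GLAST, was at 4487, 2793, 3154 and 1534 in wild type without laser and between 109.7 and 5243 (median 3398) with laser. The change was -0.33 ± 0.78 (SE, adjusted p = 0.831, limma), and it turned to 0.21 without library 12. Ceacam1-/- libraries were at 8565, 3609, 1618 and 571 without laser and between 1369 and 8095 (median 2160) with laser, a change of 0.30 ± 0.81 (SE, adjusted p = 0.867, limma), which ran from -0.38 without library 28 to 0.93 without library 23. With libraries 14, 15 and 18 left out the Ceacam1-/- change was 0.12 (adjusted p = 0.962, limma). The highest value of each Ceacam1-/- group was again in libraries 23 and 4.

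Aqp4, aquaporin 4, is the water channel of glial endfeet. In wild type it was at 2441, 1020.5, 394 and 1553 without laser and between 286 and 1081 (median 599.5) with laser. The 2 groups overlapped, and the change of -0.94 ± 0.58 (SE, adjusted p = 0.368, limma; exact permutation p = 0.0867) did not pass. It was -0.56 without library 21 and -1.44 without library 26. In Ceacam1-/- mice it was at 5392, 1537, 1146 and 552 without laser and between 380 and 3227 (median 1391) with laser, a change of -0.51 ± 0.60 (SE, adjusted p = 0.663, limma), with library 23 again highest. Without library 23 it turned to 0.099 and with the myelin covariate to 0.052. It was -1.25 without libraries 14, 15 and 18 (adjusted p = 0.224, limma) and -1.19 with the photoreceptor covariate (adjusted p = 0.156, limma). The photoreceptor list was lower in the wild type laser libraries (median of its summed value 51320.1) than in those without laser (184609), and with it as a covariate the wild type Aqp4 change was -0.47 (adjusted p = 0.594).

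Sox9 encodes a transcription factor of Müller glia, astrocytes and cartilage. In wild type it was at 4391, 3284, 5185 and 4056 normalized counts without laser and between 2958 and 5411 (median 4690.1) with laser, a change of 0.10 ± 0.23 (SE, adjusted p = 0.820, limma). Ceacam1-/- mice had 4987, 5424, 5298 and 2943 without laser and 4410.5, 3416, 3758, 2903, 2152, 1715 and 1879 in laser libraries 4, 5, 6, 7, 14, 15 and 18. The change was -0.73 ± 0.24 (SE, adjusted p = 0.0839, limma; exact permutation p = 0.0485), with 4 of 7 laser libraries below all without laser. Libraries 14, 15 and 18, with the lowest Sox9 of the group, also had its lowest values of the pigment epithelium list, as given above. The part of that tissue in the Sox9 values was not tested. With libraries 14, 15 and 18 left out the Sox9 change was -0.34 (adjusted p = 0.348, limma). It passed without library 4 (-0.84, adjusted p = 0.0406), without library 28 (-0.94, adjusted p = 0.0343) and with array weights (-0.60, adjusted p = 0.0352).

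**Figure D4:**
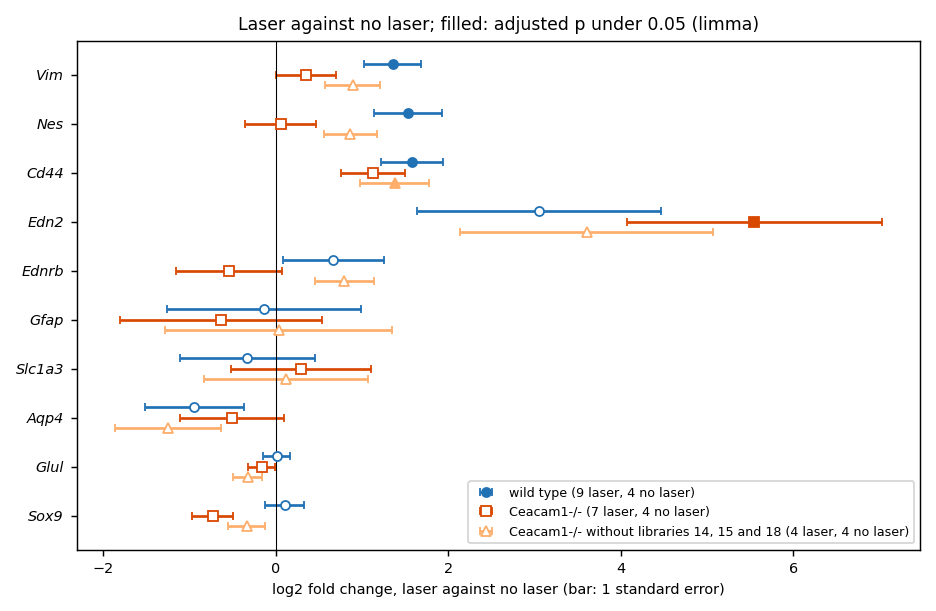
Log2 fold changes of laser against no laser with 1 standard error, for wild type (circles), Ceacam1-/- (squares) and Ceacam1-/- mice without libraries 14, 15 and 18 (triangles), with filled symbols where the adjusted p was under 0.05. Vim, Nes and Cd44 are filled in wild type and Edn2 in Ceacam1-/- mice, where leaving out the 3 libraries fills Cd44 in its place.

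Wider gene lists were read beside the 10 genes, by counts and medians against the backgrounds given above. Of 13 pan-reactive genes, induced in astrocytes by several kinds of injury and here including Gfap, Vim and Cd44, wild type mice had 6 that rose and Ceacam1-/- mice 3, with median log2 fold changes of 1.14 and 0.36. Serpina3n, a secreted serine protease inhibitor, went from a median of 405 to 9815 normalized counts in wild type and from 431 to 5165 in Ceacam1-/- mice (4.80 and 3.52, adjusted p = 1.50e-07 and 3.49e-05, limma). Timp1, an inhibitor of metalloproteinases, rose by 4.69 and 4.23 and Lcn2, the iron carrier lipocalin 2, by 3.29 and 3.58 on the log2 scale. These were the 3 genes of the Ceacam1-/- count, and Vim and Cd44 stood among the 6 of wild type. Without libraries 14, 15 and 18 the counts were 7 and 6 of 13, with medians of 1.14 and 0.89, and without library 21 the wild type count was 3. Gfap was not among the genes that rose, and no gene of the astrocyte list given below passed with all libraries. Of 14 myeloid genes, 13 rose in wild type and 9 in Ceacam1-/- mice, as given above. Which cells gave the values of the pan-reactive genes was not tested.

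Of 12 genes of the A2-type reactive state, described after ischemia, wild type mice had 4 that rose and Ceacam1-/- mice 3 (median 0.72 and 0.47). Ptgs2, the inducible cyclooxygenase, rose by 2.47 and 1.87, and B3gnt5 by 1.63 and 2.24. Cd14, which is a myeloid gene too, rose by 2.37 and 1.97, and Sphk1 rose by 1.37 in wild type. Leaving out libraries 14, 15 and 18 gave 5 genes in both genotypes (median 0.72 and 0.95), and leaving out library 25 gave 1 in Ceacam1-/- mice. None of 9 A1-type genes tested, described after endotoxin, passed in either genotype. With libraries 14, 15 and 18 left out, H2-D1 and Srgn passed in wild type and Serping1 and Srgn in Ceacam1-/- mice.

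Interleukin 6 family cytokines signal through the receptor gp130 and STAT3, a known inducer of Gfap. A list of 17 genes was read for this pathway, and it also holds the growth factor gene Fgf2. Of the 17, wild type mice had 6 that rose and Ceacam1-/- mice 4 (median 0.66 and 0.31). The cytokine gene Osm was at a median of 3.52 normalized counts without and 65.6 with laser in wild type (4.09, adjusted p = 0.00112, limma) and Il6 at 4.39 and 35.6 (3.08, adjusted p = 0.00516). Stat3 rose by 0.59 and the feedback inhibitor Socs3 by 1.19 in the same mice. The 4 genes of the Ceacam1-/- count were Socs3 (0.99), Il6 (2.97) and, named after their values were seen, the cytokine gene Lif (2.02) and the growth factor gene Fgf2 (1.53). Leaving out libraries 14, 15 and 18, wild type mice had 6 that rose and 1 that fell (Cntfr at -0.78, named after its value was seen) and Ceacam1-/- mice 5 that rose, with medians of 0.66 and 0.65. Without library 25 none of the 17 passed in Ceacam1-/- mice, and without library 21 the wild type count was 3.

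Of 10 genes for ligands and partners of CD44, wild type mice had 5 that rose and Ceacam1-/- mice 2 (median 0.90 and 0.27). Spp1, which encodes osteopontin, went from a median of 5010 to 192190 normalized counts in wild type and from 5904 to 154923 in Ceacam1-/- mice (4.92 and 4.22, adjusted p = 9.00e-07 and 3.49e-05, limma). The hyaluronan synthase genes Has2 (3.17) and Has1 (1.443), together with Cd74 (1.49) and the actin linker gene Msn (1.39), rose in wild type. Has2 rose by 1.89 in Ceacam1-/- mice as well. The Ceacam1-/- count was 4 with libraries 14, 15 and 18 left out (median 0.91) and 1 with library 24 or 25 left out, and the wild type count was 3 without library 21.

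No gene of a list of 10 astrocyte markers, led by the connexin gene Gja1, passed in either genotype, with medians of 0.02 and -0.99, a count near the background shares. The Ceacam1-/- median was -0.31 without libraries 14, 15 and 18. Leaving out libraries 14, 15 and 18, Gja1 passed in wild type (0.97, adjusted p = 0.0347, limma), as did Apoe of the Müller glia list (0.77, adjusted p = 0.0350). Of 16 Müller glia markers, led by Apoe and without genes at 0 in any library, none passed in wild type (median 0.05). Crym, a thyroid hormone binding protein gene, rose in Ceacam1-/- mice by 2.75 (adjusted p = 0.0146, limma) and by 1.92 without libraries 14, 15 and 18 (adjusted p = 0.0345), and it did not pass without library 24 (2.47, adjusted p = 0.0724) or 25 (2.65, adjusted p = 0.0801). In Ceacam1-/- laser libraries 14, 15 and 18 the mean log2 value of the Müller glia list was 11.45 to 11.91. It was 11.34 to 11.73 in libraries 4, 5, 6 and 7, which held far less of the photoreceptor list. The summed Müller glia list was lower in libraries 14, 15 and 18, at 91010.9 to 110025 against 151095 to 168738. This list thus did not rise as the photoreceptor list did, and how far it measures Müller glia was not tested. None of 11 genes of glutamate and glutamine handling passed. Of 12 intermediate filament genes and partners, Vim and Nes were the only ones to pass in wild type, and none did in Ceacam1-/- mice. Of 9 genes of water and potassium transport, 1 fell in wild type and 2 in Ceacam1-/- mice, of which 1 is not reported here. Dtna, which encodes α-dystrobrevin of the dystrophin complex in endfeet and muscle, fell by 1.18 in wild type and fell by 1.52 in the other genotype on the log2 scale. It did not pass in wild type without library 22 (-1.05, adjusted p = 0.0510, limma) or 27 (-1.001, adjusted p = 0.0690), which left 0 genes of the list there. The Ceacam1-/- count of the list was 1 without library 24 or 25, 3 without library 4 and 4 without library 23, and the wild type count was 2 without libraries 14, 15 and 18. The skeletal muscle list, led by Atp2a1, had median log2 fold changes of -0.99 and -2.07 in the same order. None of its 10 genes passed with all libraries, but in Ceacam1-/- mice all 10 passed as lower without library 23 and 4 did without library 4, and the median was -1.55 without libraries 14, 15 and 18. The part of muscle in these values was not tested.

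Genotype was compared next, to ask whether Ceacam1 deletion alters these genes. Without laser none of the 9 genes tested passed, against a background of 0 of 20057 genes (0%), and none was under an unadjusted p of 0.05, where 307 genes (1.53%) were (limma). Log2 fold changes of Ceacam1-/- against wild type ran from -0.27 for Slc1a3 to 0.49 for Vim. The 95% intervals were wide for Gfap (from -2.49 to 2.67) and narrower for Sox9 (from -0.45 to 0.69) and Glul (from -0.19 to 0.77). The paper, using DESeq2 with sex as a covariate, did report a small set of genes that differed between the genotypes without laser. Ceacam1 itself did not pass in the fit used here, so the background of 0 does not show that no gene differed.

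With laser none of the 10 passed, against a background of 4 of 19757 genes (0.0202%, limma). At an unadjusted p under 0.05, where 22.7% of all genes stood, Sox9 was at -0.71 (95% interval from -1.12 to -0.30, adjusted p = 0.112), Nes at -1.24 (from -1.98 to -0.49, adjusted p = 0.119), Cd44 at -0.58 (adjusted p = 0.165) and Ednrb at -1.19 (adjusted p = 0.212). All 4 were closer to 0 without libraries 14, 15 and 18, where the values were -0.32, -0.43, -0.33 and 0.15, and none of the 4 was under an unadjusted p of 0.05.

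The test of whether the laser change differed between genotypes, the interaction, found none of the 10 genes and 0 of 19950 overall (0%, limma), with 1241 (6.22%) at an unadjusted p under 0.05. Among these, Nes was at -1.48, Sox9 at -0.83 and Vim at -1.01 (adjusted p = 0.640 each), the sign meaning a smaller rise or larger fall in Ceacam1-/- mice. Without libraries 14, 15 and 18 they were at -0.67, -0.44 and -0.46, with unadjusted p of 0.112, 0.124 and 0.280. A difference between genotypes in the laser response of the glial genes was therefore not detected with these libraries, and the intervals do not show that the responses were alike.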

How the data were processed

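Total RNA of choroidal tissue was amplified and sequenced with the SMART-Seq chemistry, which does not mark strand. Per the labels and the methods of the study, the authors checked reads with FastQC 0.11.5, quantified them against GRCm39 with Salmon 1.10.3, removed 1 outlier library that is not named and computed normalized counts with DESeq2 1.44.0. The deposited signal values are these normalized counts, not whole reads, so count models were not used and counting error per value is unknown. Over which libraries the factors were computed is not given in the sources used here, and the 10 genes and all gene lists were chosen with earlier results of these data known. The lists of myelin and of corneal keratin genes were added after these values were seen.

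Groups came from the labels. Values were compared on the log2 scale, after a pseudocount of 1 had been added, with limma 3.58.1 (R 4.3.3, variance trend on the mean) for genes with a mean of at least 10, with Benjamini-Hochberg adjustment over all genes tested and a threshold of 0.05. Laser and interaction came from a model of all 24 libraries, genotype from the 8 libraries without or the 16 with laser. Laser effects on single genes were also tested by exact two-sided permutation, unadjusted (scipy 1.17.1). The limma function was tested on simulated data. All 10 genes were named. From each list the genes past the threshold after laser were named, at most 5 by lowest p in wild type, with the most abundant marker of each list and, for Gfap, Edn2 and Cd44, the 5 genes with the highest Pearson's r. Positions came from the GRCm39 annotation, which matched 99.1% of identifiers, and promoters from RefSeq. Alternatives were other pseudocounts, filters, scalings and variance models, covariates, and leaving out libraries. Batch and sex are not given by the labels. Some results for single listed genes are not reported here.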

Additional observations from a re-analysis of the deposited data

Results flagged for a closer look

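Of the 40 combinations of gene and group, 5 held a highest value set apart from the others by more than Dixon's 95% critical value, taken on normalized counts. Chance exceeds it in about 1 in 20 groups where values are normally distributed, which these skewed counts need not be. Of the 5, 1 also exceeded it on the log2(value + 1) scale used for the tests, Edn2 in library 28. For Gfap these were library 23 of the Ceacam1-/- group without laser (42060.1 normalized counts, next 7586) and library 4 of the Ceacam1-/- laser group (22843, next 5349). Both also held the most Mbp of their groups, 375721 and 63090, and a test with a myelin covariate is given with the Gfap values. Cd44 in library 22, wild type without laser, was at 2907 (next 841), in a library with 175232 normalized counts of Krt12. Edn2 was at 25.4 in library 28 of the Ceacam1-/- group without laser, where the other 3 were listed at 0. Edn2 was at 1955 in library 14 of the Ceacam1-/- laser group (next 768), in a library with 1007250 normalized counts summed over the photoreceptor list. The part of these tissues in the values was not tested beyond the covariate fits.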

How the results depend on the processing

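No paired analysis was possible because the groups share no replicate numbers. Over 17 alternatives other than leaving out 1 library, Vim and Cd44 passed in wild type in all 17 and Nes in 16, and Ednrb passed there in 1, with array weights. Edn2 passed in Ceacam1-/- mice in 9 of 17, Cd44 in 3 and Sox9 in 1. The number of the 10 genes that passed in Ceacam1-/- mice was 0 with a pseudocount of 10, without a filter, with photoreceptor, myelin or both covariates, with only the compared libraries, and without libraries 14, 15, 18 and 23. It was 2 without libraries 15, 22 and 28 and 3 with array weights. Leaving out 1 library gave 0 to 3 of the 10 in wild type and 0 to 3 in Ceacam1-/- mice, and 0 in all runs for the interaction and both genotype comparisons. Over all genes, leaving out 1 library gave 479 (without library 21) to 1257 calls in wild type, 148 (without 25) to 2488 (without 23) in Ceacam1-/- mice, and 4 to 61 for genotype with laser. Array weights gave 6505, 3551 and 297 calls, and only the compared libraries gave 2274 and 38. Without libraries 14, 15 and 18 there were 2128 and 2005, and without 23 too 2753 and 2782.

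Signs turned for genes that did not pass, and the cause was not tested. In wild type Gfap was at 0.81 with array weights, 0.0066 without libraries 15, 22 and 28, 0.50 with the myelin covariate, 0.74 with both covariates and -0.68 to 0.61 with 1 library left out. Slc1a3 was at 0.26 with array weights, 0.055 with the myelin and 0.41 with both covariates, and -0.62 to 0.21 with 1 library left out. Glul was at -0.071 with quantile normalization, -0.0078 with the photoreceptor and -0.0078 with the myelin covariate, -0.030 with both, -0.025 with the Y-linked covariate and -0.037 to 0.054 with 1 library left out. Sox9 was at -0.019 with the photoreceptor covariate, -0.013 without libraries 15, 22 and 28 and -0.013 to 0.21 with 1 library left out. In Ceacam1-/- mice Gfap was at 0.032 without libraries 14, 15 and 18, 0.98 without 23 too, 1.19 with the myelin and 0.93 with both covariates, and -1.73 to 0.32 with 1 library left out. Slc1a3 was at -0.27 with array weights, -0.096 with the photoreceptor covariate, -0.27 without libraries 15, 22 and 28 and -0.38 to 0.93 with 1 library left out. Aqp4 was at 0.052 with the myelin covariate and -0.996 to 0.099 with 1 library left out, and Nes at -0.12 to 0.28. Ednrb was at 0.26 with array weights, 0.79 without libraries 14, 15 and 18, 0.90 without 23 too, 0.12 with the myelin and 0.40 with both covariates. For genotype with laser Ednrb was at 0.15 without libraries 14, 15 and 18. The covariate of myelin, both covariates together and the sets of several libraries left out were chosen after seeing the data.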
